A study of Mus musculus with 6 samples.

Results

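Activins and inhibins are secreted signals built from a small set of subunits, and 8 genes of this system were followed in fetal mouse testes: the subunit genes Inha, Inhba and Inhbb, the antagonist gene Fst and the receptor genes Acvr1, Acvr1b, Acvr2a and Acvr2b. They were taken by symbol from a table of 16862 genes, all 8 were listed, and all 8 passed the filter on low values that left 15116 genes for testing. The RNA came from whole male gonads of C57BL/6 embryos at E13.5 (an embryonic day, when the testis has formed its cords), 3 of them wild type (libraries 1, 3 and 4) and 3 with neither of the prostaglandin D synthases L-Pgds and H-Pgds (L/H-Pgds-/-, libraries 5, 7 and 8). The labels call the embryos different littermates, name no treatment and no Cre, and tie no library to a litter or batch, so p-values measure the spread between these samples. Values are the authors' upper-quartile normalised pseudo-counts, which are adjusted and fractional and hold no sequencing depth.

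An activin is a dimer of beta subunits, which Inhba (beta A) and Inhbb (beta B) encode, and an inhibin joins a beta subunit to the alpha subunit that Inha encodes. Activins bind the type II receptors Acvr2a or Acvr2b, which recruit the type I receptor Acvr1b (ALK4) and pass the signal to Smad2 and Smad3; inhibins occupy the type II receptors without starting it, and follistatin, the product of Fst, traps activins outside the cell. In the fetal testis, Sertoli cells are a main source of Inha and Inhbb, fetal Leydig cells make activin A that acts on Sertoli cell proliferation, and Fst is better known as a gene of the fetal ovary.

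The alpha subunit gene fell in the knockout, while both beta subunit genes and the receptors Acvr1b and Acvr2a rose. Inhba had the highest fold, 4.01 times the wild-type mean, followed by Acvr1b at 2.18 times and Acvr2a at 1.71 times, while Inha stood at 0.627 of its wild-type mean. Fst, Acvr1 and Acvr2b did not pass the test. Thus 4 of 8 genes were higher and 1 was lower by limma's moderated test, adjusted over all genes, against 17.3% of all tested genes higher and 17.0% lower (34.3% in either direction). The median log2 change was 0.35 for the 8 genes and -0.03 for all tested genes. A trend with transcript length and GC content ran through these libraries. Once it was removed, Inhba, Inhbb and Acvr1b were higher (3 of 8) and 0 were lower, against 5.68% of genes higher and 5.77% lower (11.4% in all), with a median of 0.33 for the 8 genes and -0.01 for all. Inhba counts as higher in both fits, though it passed the filter only through its knockout libraries. With the filter raised to 50, where Inhba and Fst were not tested, 3 of 6 were higher and 1 was lower. Of all 12838 genes then tested, 2611 were higher and 2663 lower. The plot of values by library shows each gene on its own axis.

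**Figure D1:**
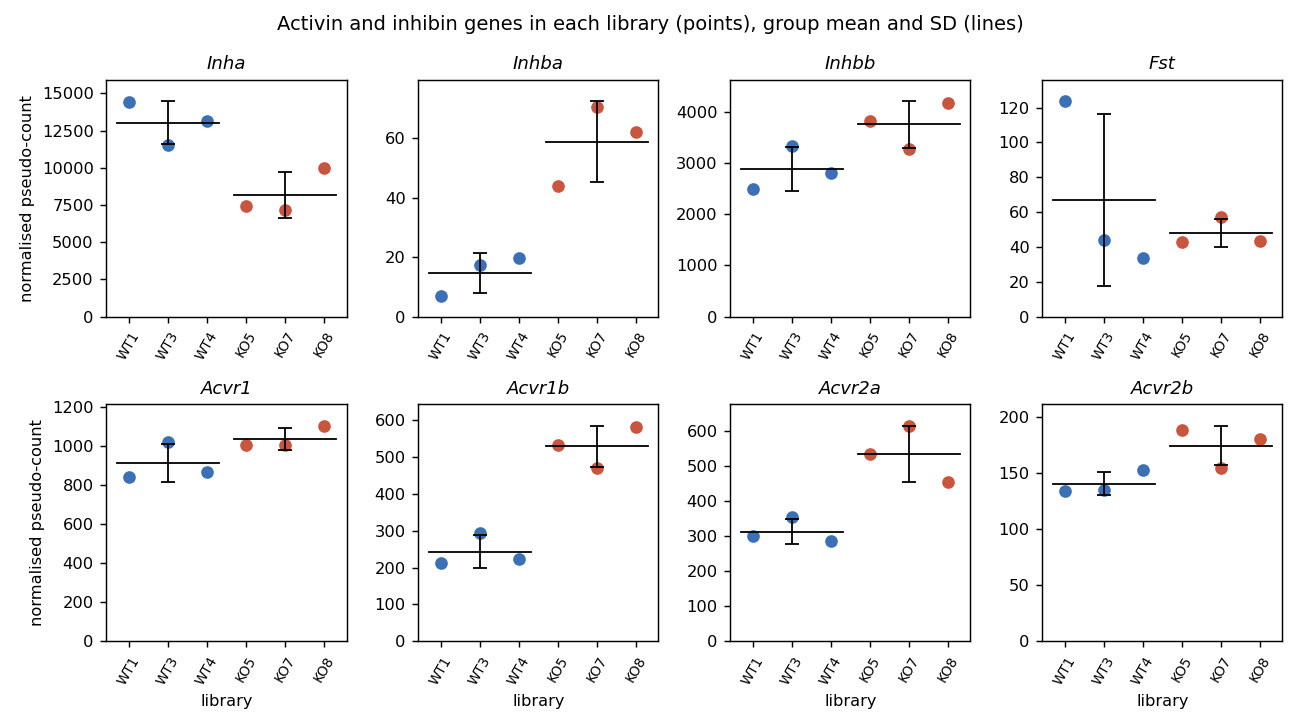
Normalised pseudo-counts (vertical axes, each from 0) of the 8 genes in the 3 wild-type (WT, blue) and 3 knockout (KO, red) libraries, with group mean and SD in black. Inha is lower in every knockout library, Inhba, Acvr1b, Acvr2a and Acvr2b are higher in every one, and for Fst wild-type library 1 stands at 124 against at most 57.4 elsewhere.

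For Inhba, Inhbb and Acvr1b, the genes called higher both with and without that trend, the 250 bases before the RefSeq starts (GRCm38.p6) are shown in full, 5′ to 3′ on the gene's strand. The choice adds no support to their changes. Inhba passed the filter only through its knockout libraries, and the Inhbb call depended on single libraries, as given below. Capitals mark matches on either strand to the letters of 6 motifs, which were the TATA box TATAAA, the GC box GGGCGG, the cAMP response element TGACGTCA, the AP-1 site TGANTCA, the CCAAT box CCAAT and the SF-1 core AAGGTCA. The windows are chr13:16011601-16011850 on the plus strand for Inhba, chr1:119422249-119422498 on the minus strand for Inhbb and chr15:101173822-101174071 on the plus strand for Acvr1b.
Inhba: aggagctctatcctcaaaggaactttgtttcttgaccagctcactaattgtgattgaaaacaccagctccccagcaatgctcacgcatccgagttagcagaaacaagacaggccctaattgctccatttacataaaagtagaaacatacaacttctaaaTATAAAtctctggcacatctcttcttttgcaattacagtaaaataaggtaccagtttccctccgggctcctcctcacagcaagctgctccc
Inhbb: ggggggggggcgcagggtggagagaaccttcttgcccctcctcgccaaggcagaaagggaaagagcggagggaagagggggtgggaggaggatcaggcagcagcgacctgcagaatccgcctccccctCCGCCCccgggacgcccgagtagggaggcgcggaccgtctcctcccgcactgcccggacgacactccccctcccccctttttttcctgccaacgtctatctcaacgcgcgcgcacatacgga
Acvr1b: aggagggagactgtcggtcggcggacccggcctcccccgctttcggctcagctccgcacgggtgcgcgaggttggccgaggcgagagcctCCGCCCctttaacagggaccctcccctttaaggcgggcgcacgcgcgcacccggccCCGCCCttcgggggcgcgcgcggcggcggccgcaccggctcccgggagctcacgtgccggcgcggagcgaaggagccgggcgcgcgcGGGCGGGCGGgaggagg
The Inhba window holds 1 TATA box, which 12.4% of 32851 windows of this length hold, and 43.2% GC with 3 CpG dinucleotides. The Inhbb window holds 1 GC box, 68% GC and 21 CpG, and the Acvr1b window holds 4 GC boxes, of which the last 2 overlap, 78.8% GC and 42 CpG. A GC box occurs in 32.7% of windows. The other 4 motifs had no match in the 3 windows, and no match lies over one to another motif. The median window has 52.4% GC. Of the 8 genes, 7 have a window. Those of Acvr1, Acvr2a and Acvr2b, none of which passed both fits, hold 6, 2 and 3 GC boxes and 85.6%, 82% and 72.8% GC. That of Inha begins from a start 532 bases inside the annotated gene and was not used, and Fst has none. The files hold no protein or binding data for these genes, and the matches describe letters alone.

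Inha, the alpha subunit gene, held 14393, 11512 and 13162 in wild-type libraries 1, 3 and 4 and 7403, 7125 and 9980 in knockout libraries 5, 7 and 8. Every knockout library lay below every wild-type library. Means were 13022 ± 1446 against 8169 ± 1574 (wild type, knockout; SD, n = 3), and the log2 change was -0.68 (SE 0.14, adjusted p = 0.00493 by limma). Libraries of both genotypes did not overlap in 50.3% of tested genes, with knockout higher in 24.7% and lower in 25.6%; among the 8 genes they did not overlap in 4 that were higher and in 1 that was lower. Inha is NCBI gene 16322 (mm9, chromosome 1, 75503652 to 75506929). Its longest coding transcript has 1475 nt and 59.7% GC, which places it in the shortest of 5 equal length classes of genes, where 46.5% were lower, 0.657% were higher and the median log2 change was -0.42. With the length and GC trend removed, the change of Inha was -0.15 (SE 0.10, 95% interval -0.37 to 0.08, adjusted p = 0.389), so the call ended.

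Inhba, the beta A gene, held 6.98, 17.3 and 19.8 in wild-type libraries 1, 3 and 4, and 43.9, 70.6 and 62.1 in the knockout. It passed the filter, at least 10 in at least 3 libraries, through the knockout, since only 2 wild-type libraries reached 10. The lowest knockout library had more than the highest wild-type library. Its mean went from 14.7 ± 6.78 to 58.9 ± 13.6 (SD, n = 3), a log2 change of 2.02 (SE 0.40, adjusted p = 0.00446), the 42nd highest rise of 15116 genes. Inhba is NCBI gene 16323 (mm9, chromosome 13, 16106308 to 16119044). Its 6390 nt transcript belongs to the longest class, where 45.5% of genes were higher and the median change was 0.33. The change was 1.48 with the trend removed (SE 0.39, adjusted p = 0.0395), 1.59 without wild-type library 1 (adjusted p = 0.00248) and 1.05 with both (adjusted p = 0.032). At such low values the number of reads behind each library is unknown.

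Inhbb, the beta B gene, was abundant and rose by less, from 2498, 3335 and 2809 in wild type to 3820, 3268 and 4163 in knockout. Knockout library 7 lay below wild-type library 3, so the groups overlapped. The mean was 2881 ± 423 and 3750 ± 452 (SD, n = 3), a log2 change of 0.38 (SE 0.12, adjusted p = 0.0359). Removal of the trend left 0.49 (SE 0.10, adjusted p = 0.0137). The call depended on single libraries: leaving out wild-type library 1 or 4 gave adjusted p = 0.102 and 0.103, and leaving out knockout library 5 or 8 gave 0.106 and 0.115, with log2 changes from 0.29 to 0.37. Without a mean-dependent prior on the spread it was 0.098. Inhbb is NCBI gene 16324 (mm9, chromosome 1, 121312042 to 121318825).

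Of 55 marker genes in 10 cell type lists, 11 passed the test (20%, beside 34.3% of all genes), and 8 of those 11 calls ended with the length and GC trend removed. The summed level of 8 Sertoli cell genes spanned 87423 to 119277 (wild type) and 74009 to 98497 (knockout), and 0 of 8 passed the test in either direction. For 6 fetal Leydig cell genes the ranges were 77732 to 118687 and 59496 to 81405, and 1 of 6, Hsd3b1, was lower (adjusted p = 0.0457, and 0.223 with the trend removed). The highest Leydig sum was that of wild-type library 1, while libraries 3 and 4 held 77732 and 82348. Library 1 also held the lowest wild-type sums of the Sertoli and erythroid lists. In whole gonads, fewer cells of a type and less RNA per cell cannot be told apart. The sums of 5 interstitial genes did not overlap, at 27849 to 29131 and 31342 to 32867, with 2 of 5 higher, Nr2f2 and Pdgfra, whose calls ended with the trend removed (adjusted p = 0.306 and 0.317). Those of 5 mesonephric epithelium genes did overlap, at 1164 to 2074 and 1616 to 1850, with 1 of 5, Lhx1, higher in both fits. The part of these cells in the changes of Inha, Inhba and Inhbb was not tested. Ranges of the other lists were 19008 to 29159 and 20170 to 34592 for germ cells (1 of 6 higher, Ddx4), 5631 to 7534 and 7022 to 7680 for endothelium (1 of 5 higher, Kdr, and 1 lower, Esam), 34267 to 124867 and 72759 to 110256 for erythroid cells (0 of 4 tested changed) and 1004 to 1257 and 742 to 811 for macrophages (2 of 5 lower, Csf1r and Fcer1g). Of these 5 calls, that of Csf1r alone held with the trend removed (adjusted p = 0.03), while Ddx4 had 0.165, Kdr 0.0565, Esam 0.871 and Fcer1g 0.119. No listed marker was at 0 in all libraries.

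Fst, which encodes the activin trap follistatin, held 124, 43.7 and 33.5 in wild type and 42.9, 57.4 and 43.4 in knockout. Only wild-type library 1 stood away from the rest. The log2 change was -0.25 (SE 0.42, 95% interval -1.18 to 0.68, adjusted p = 0.667), and it turned to 0.30 without wild-type library 1 (adjusted p = 0.429). The same library held 22970 for the sum of 6 skeletal muscle genes, among them Myod1, Myog and Acta1, against 244 to 566 in the other 5 libraries, with 0 of 6 past the test. Among 5 genes of ovarian supporting cells, 2 fell, Wnt4 and Rspo1, with sums of 4782 to 5366 in wild type and 3100 to 3325 in knockout. With the trend removed Wnt4 was still lower (log2 -0.76, adjusted p = 0.00254), and the call of Rspo1 ended (-0.09, adjusted p = 0.562). Foxl2, the defining factor of those cells, held 12.3 to 29.9 in all libraries. The part of either cell type in the Fst values was not tested. Fst is NCBI gene 14313 (mm9, chromosome 13, 115242470 to 115248938), and 115 nt of its exons overlap an antisense gene in the GENCODE vM21 annotation, Gm47040, so its value is uncertain: the library kit named, TruSeq RNA, does not mark strand.

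Acvr1b, the type I receptor of activins, passed the test under every alternative tried. It held 212, 294 and 222 in wild type and 533, 472 and 583 in knockout. The groups were far apart relative to their spread, with means of 243 ± 44.8 and 529 ± 55.9 (SD, n = 3). The log2 change was 1.13 (SE 0.15, adjusted p = 0.00168) and 1.07 with the trend removed (SE 0.14, adjusted p = 0.00344), and it stayed between 1.04 and 1.28 with any library left out. Acvr1b is NCBI gene 11479 (mm9, chromosome 15, 101004556 to 101043032). Acvr1 (ALK2), a type I receptor used mainly by BMPs, held 841, 1021 and 867 in wild type and 1005, 1002 and 1101 in knockout. Its groups overlapped, and its log2 change of 0.19 did not pass (SE 0.10, 95% interval -0.04 to 0.42, adjusted p = 0.181). Acvr1 is NCBI gene 11477 (mm9, chromosome 2, 58298849 to 58419239).

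Acvr2a, a type II receptor that binds activins, held 298, 353 and 285 in wild type and 533, 614 and 455 in knockout, without overlap. The means were 312 ± 35.7 and 534 ± 79.3 (SD, n = 3), a log2 change of 0.77 (SE 0.14, adjusted p = 0.00369). Its transcript of 5686 nt with 39.9% GC lies in the longest class, and the change was 0.22 with the trend removed (SE 0.11, 95% interval -0.01 to 0.46, adjusted p = 0.212), so the call ended. Acvr2a is NCBI gene 11480 (mm9, chromosome 2, 48669629 to 48758273). Orc4, a gene of the replication origin complex on the opposite strand, shares 446 nt of exon with it in GENCODE vM21, and reads there cannot be assigned to either gene. Orc4 stood at 1382 ± 91.8 and 1732 ± 545 (SD, n = 3; log2 0.28, adjusted p = 0.236). Acvr2b, the other type II receptor, held 134, 135 and 152 in wild type and 189, 155 and 180 in knockout. Its groups did not overlap but lay close, and the log2 change of 0.31 did not pass (SE 0.16, 95% interval -0.05 to 0.66, adjusted p = 0.16; 0.43 and 0.0969 with the trend removed). Acvr2b is NCBI gene 11481 (mm9, chromosome 9, 119311619 to 119342624).

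**Figure D2:**
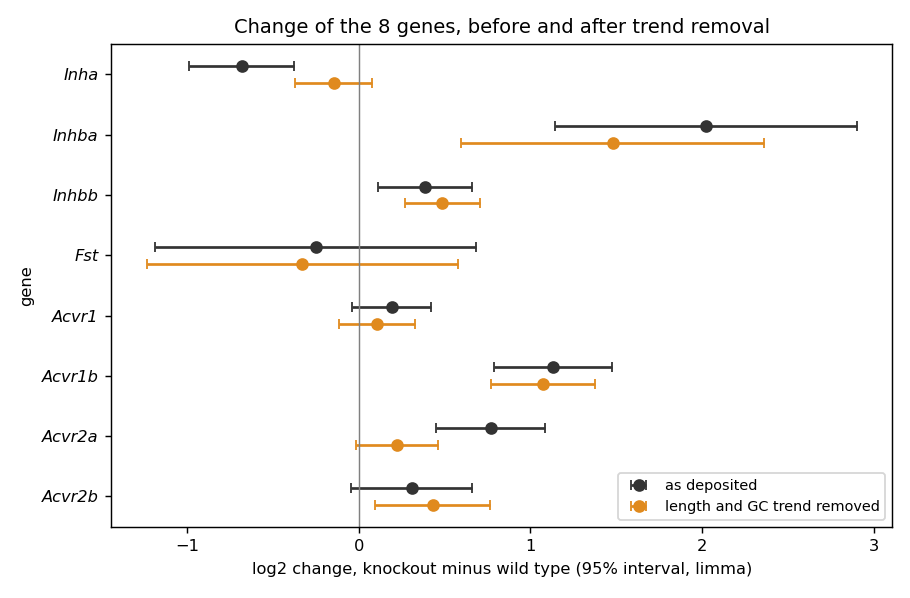
Log2 change (knockout minus wild type, horizontal axis) of the 8 genes with 95% intervals from limma, for the deposited values (dark) and without the trend by transcript length and GC (orange). Inhba, Inhbb and Acvr1b keep intervals above 0 in both, while those of Inha and Acvr2a reach across 0 after removal.

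The 8 genes lie at different points of the length trend, as the plot of change against transcript length shows. Inha is the 1 gene of the 8 in length class 1 (216 to 1792 nt). Fst, Acvr1 and Acvr2b lie in class 3 (2673 to 3645 nt), Acvr1b and Inhbb in class 4, where 25.4% of genes were higher, and Inhba and Acvr2a in class 5 (5114 nt and more). The part of the change that the fitted trend took was -0.54 for Inha, 0.54 for Inhba and 0.55 for Acvr2a. For Acvr1b it was 0.06 and for Inhbb it was -0.10. Whether the trend arose in the libraries or in the embryos cannot be told apart here.

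**Figure D3:**
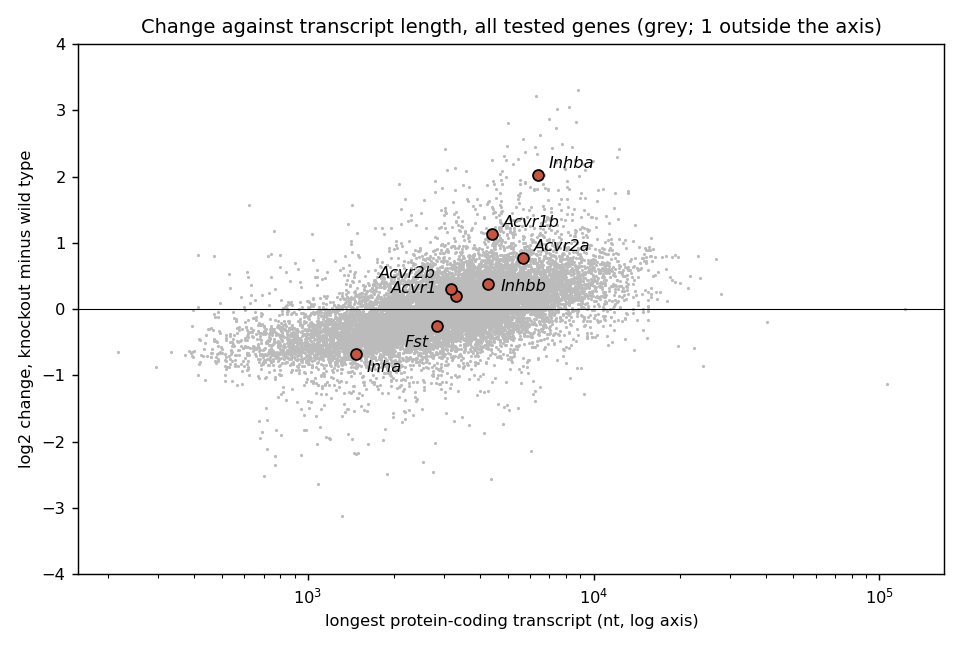
Log2 change (vertical axis) against the length of the longest protein-coding transcript (horizontal log axis) for tested genes with a length (grey, 1 gene lies outside the axis) and the 8 activin and inhibin genes (red). Changes climb with length; Inha lies low at 1475 nt, and Inhba and Acvr1b lie at 2.02 and 1.13, above most genes of like length.

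Levels of different genes were compared per kb of transcript, as normalised value divided by the longest coding transcript. The order of the 8 levels was the same in wild type and knockout. Inha led with 8828 ± 980 per kb (wild type) and 5539 ± 1067 (knockout; SD, n = 3). Inhbb followed with 677 ± 99.4 and 881 ± 106, and Acvr1 with 276 ± 29.5 and 315 ± 17.2. Among the activin receptors proper, Acvr1b stood at 54.9 ± 10.1 and 120 ± 12.7, Acvr2a at 54.9 ± 6.27 and 93.9 ± 13.95, and Acvr2b at 44.3 ± 3.22 and 55.0 ± 5.53. Acvr1b and Acvr2a overlapped between libraries in both genotypes, so their order is not resolved, and in wild type Acvr1b also overlapped Acvr2b. Fst, with 23.6 ± 17.4 and 16.9 ± 2.91, overlapped Acvr2b in wild type through library 1. Inhba was lowest, with 2.30 ± 1.06 per kb in wild type and 9.21 ± 2.13 in knockout, and it stayed below Fst in every library. Beta B thus exceeded beta A at the transcript level in all 6 libraries.

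Subunits pair into dimers, so ratios between genes were taken within each library from normalised values. Plain ratios divide the values, so scaling cancels. The log2 differences and their tests add 1 to each value first, so scaling cancels only nearly, and least where values are low, as for Inhba. Neither is corrected for length, so their change is the quantity of interest. Inha to Inhbb was 5.76, 3.45 and 4.69 in wild type and 1.94, 2.18 and 2.40 in knockout. All knockout libraries had the lower ratio, with a log2 difference of -1.07 (exact permutation p = 0.1 two-sided, 0.12 adjusted over 6 ratios), or -0.63 with the trend removed. Exact tests of 3 against 3 libraries cannot go below 0.1. Inha to Inhba differed by -2.70, Inhba to Inhbb by 1.64 and Fst to Inhba by -2.27 on the log2 scale, each with the genotypes apart (exact permutation p = 0.1, adjusted 0.12). Fst to Inhba was 17.7 in wild-type library 1 and 2.53 and 1.69 in the other wild-type libraries, against 0.70 to 0.98 in knockout, and its difference was -1.29 without that library. With the trend removed, Inha to Inhba differed by -1.63 and Inhba to Inhbb by 0.99. With 10 added in place of 1, Inha to Inhba differed by -2.18, Inhba to Inhbb by 1.12 and Fst to Inhba by -1.74. Among receptors, Acvr1 to Acvr1b went from 3.97, 3.47 and 3.90 to 1.89, 2.12 and 1.89, a log2 difference of -0.94 (exact permutation p = 0.1, adjusted 0.12) and -0.97 with the trend removed. Acvr2a to Acvr2b overlapped between genotypes, and its difference of 0.46 (exact permutation p = 0.2) turned to -0.21 with the trend removed. Each of the 6 ratios holds a gene that passed the test on its own, and 50.3% of single genes did not overlap between genotypes. How often ratios of other gene pairs lie apart was not tested.

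**Figure D4:**
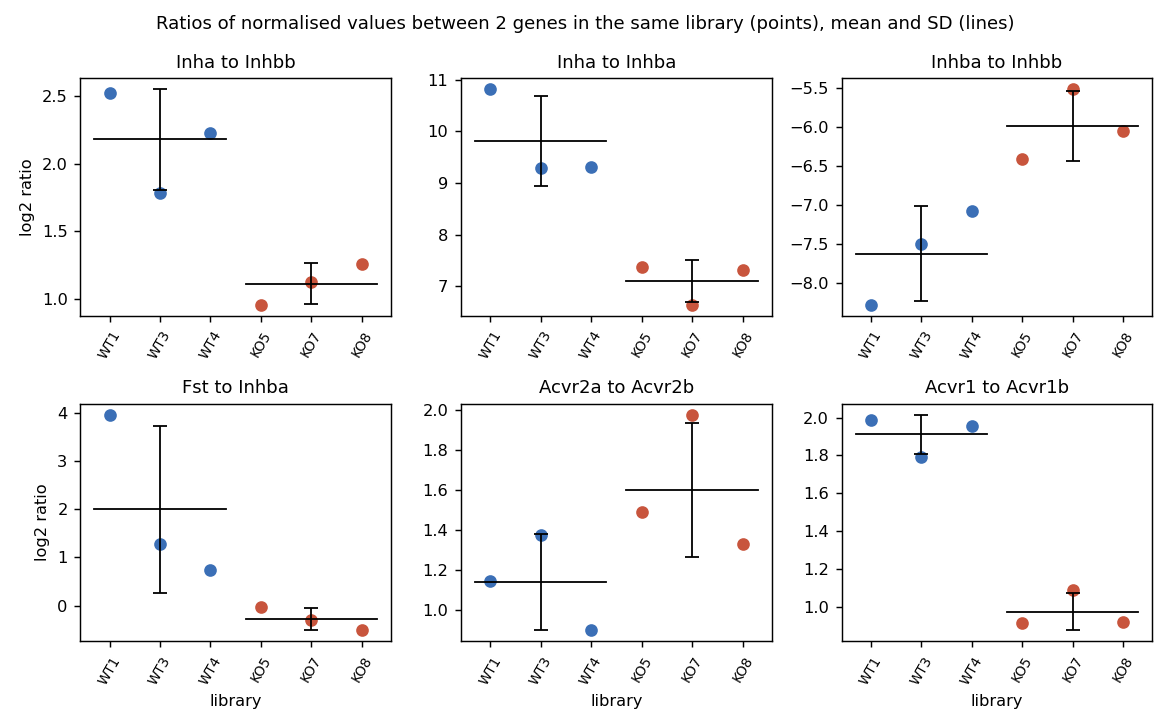
Log2 ratio of the normalised values, each with 1 added, of 2 genes in the same library (vertical axes do not start at 0). Points are 3 wild-type (blue) and 3 knockout (red) libraries, with mean and SD in black. The genotypes are apart for all ratios but Acvr2a to Acvr2b. The distance is clearest for Acvr1 to Acvr1b, with wild-type libraries between 1.79 and 1.99 and knockout libraries between 0.91 and 1.09. Of single tested genes, 50.3% lie apart, and the share for ratios of other gene pairs was not tested.

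Across the 6 libraries, genes with a like pattern were sought among genes with a mean of at least 100, as a description. Closest to Inha were Folr1 (Pearson r = 0.998), a folate receptor, and Nat9 (r = 0.998); 1325 of 11780 genes compared had r above 0.9. Folr1 fell from 2375 ± 357 to 1352 ± 280 (SD, n = 3). Closest to Inhba were 4931406P16Rik (0.997) and the DNA ligase gene Lig3 (0.994), with 965 genes above 0.9. Closest to Inhbb were Cmtm4 and Ctage5 (both 0.995), with 463 genes above 0.9, and closest to Fst were Trmt5 (0.998) and Samhd1 (0.991), with 118. All these points share the split by genotype and the same 6 libraries, so high values are common. Among the 8 genes, Inha and Acvr2a ran opposite to each other (r = -0.98), and Inhbb ran with Acvr1 (0.94) and Acvr1b (0.92). These correlations are of deposited values. The fitted length and GC trend took -0.54 of the -0.68 for Inha and 0.55 of the 0.77 for Acvr2a.

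The wider activin pathway was read from a list of other genes. Of 32 genes for ligands, binding proteins, co-receptors, Smads, feedback genes, convertases and receptor-binding proteins, 30 were measured and 29 passed the filter. Of these 29, 6 were higher and 2 lower (27.6%, near the 34.3% of all genes tested), with a median log2 change of 0.16. With the trend removed 1 was higher and 3 were lower (13.8%, near the 11.4% of all genes), with a median of 0.04. The split moved with scaling, to 10 higher and 0 lower with equal totals, 8 and 1 with quantile normalisation and 6 and 1 with the median of ratios. Over all genes the split moved too, from 2609 higher and 2571 lower to 3507 and 1687, 2660 and 2417, and 2718 and 2363, in the same order. Among single libraries left out, the split of the pathway list was 10 and 0 without wild-type library 3, 4 and 0 without wild-type library 4 or knockout library 7, 4 and 2 without knockout library 5, and 5 and 1 without wild-type library 1 or knockout library 8. Without a mean-dependent prior on the spread it was 4 and 0, as the calls of Bambi, Smad4, Fkbp1a and Synj2bp ended (adjusted p = 0.0785, 0.0681, 0.0865 and 0.0681).

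Smad7, an inhibitory Smad, rose from 1427 ± 91.7 to 1907 ± 110 (SD, n = 3). Its log2 change was 0.42 (SE 0.09, adjusted p = 0.00645). It was past the threshold in every alternative, with 0.47 after removal of the trend (adjusted p = 0.0164). Skil (SnoN), a corepressor of Smads, rose from 1495 ± 192 to 2549 ± 266, and Smurf2, a ubiquitin ligase for Smads and receptors, from 1166 ± 113 to 1575 ± 87.9. Both lost their calls with the trend removed (log2 0.77 to 0.21 and 0.44 to 0.09, adjusted p = 0.2 and 0.468). So did Zfyve9 (SARA), which presents Smads to the receptors (0.45 to 0.03, adjusted p = 0.871). Smad4, the shared partner of receptor-activated Smads, rose from 2289 ± 111 to 2763 ± 139 (log2 0.27, adjusted p = 0.03). Its call ended with the trend removed (0.125) and without wild-type library 1 (0.114), wild-type library 4 (0.0814), knockout library 5 (0.0572), 7 (0.0577) or 8 (0.0583). Smad2 and Smad3, which carry the activin signal, did not pass (adjusted p = 0.0807 and 0.128). After removal, Smad2 and the Smad-binding membrane protein gene Pmepa1, a feedback gene of the list, were lower (log2 -0.28 each, adjusted p = 0.0371 and 0.0457). The deposited values gave 0.22 for Smad2. For Pmepa1 they gave -0.24 (adjusted p = 0.0729), with means of 2327 ± 82.2 in wild type and 1972 ± 206 in knockout. Smad2 and Pmepa1 are named after their values were seen.

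Bambi, a pseudoreceptor that blocks receptor complexes, fell from 3029 ± 396 to 2324 ± 214 (SD, n = 3; log2 -0.38, SE 0.11, adjusted p = 0.0269), and its change was -0.78 with the trend removed (adjusted p = 0.00616). The call ended when wild-type library 3 or 4 was dropped (adjusted p = 0.0729 and 0.111), when knockout library 7 or 8 was (0.0726 and 0.0685), and with equal totals (0.0844). Fkbp1a, which encodes the type I receptor guard FKBP12, fell by 0.31 on the log2 scale (adjusted p = 0.042), and with the trend removed the change was -0.06 (0.739). Its call was kept with no single library left out but knockout library 5, with adjusted p of 0.0602 to 0.138 in the other cases, and it ended under all 3 other scalings (0.0641 to 0.426). Synj2bp, whose product binds type II receptors, rose by 0.34 (adjusted p = 0.0306) and stood at -0.15 after removal (0.29), and its call ended when wild-type library 4 (0.126) or knockout library 5 (0.0743) or 7 (0.0785) was dropped. The groups of the list with 0 changed genes were the other ligands, the binding proteins, the other activin-type receptors and the convertases. Their most abundant members were Gdf11 (log2 0.58, adjusted p = 0.112, but 0.0261 without wild-type library 3), the follistatin-like gene Fstl1 (11358 ± 1128 and 11082 ± 508, SD, n = 3), Acvrl1 (ALK1; log2 -0.17, adjusted p = 0.191) and the convertase gene Pcsk5 (log2 0.30, adjusted p = 0.0602, but 0.0268 without wild-type library 3 and 0.0197 with equal totals). Acvr1c (ALK7), another type I receptor for activins, is given as context: it held 7.69, 40.6 and 29.5 in wild type and 59.1, 45.9 and 36.1 in knockout. Its groups overlapped (log2 1.08, adjusted p = 0.129). Inhbc and Inhbe were not analysed here, and Mstn was below the filter. Tgfbr3 (betaglycan), the co-receptor that lets inhibin bind type II receptors, stood at 1433 ± 40.2 and 1642 ± 156 (SD, n = 3; adjusted p = 0.137).

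**Figure D5:**
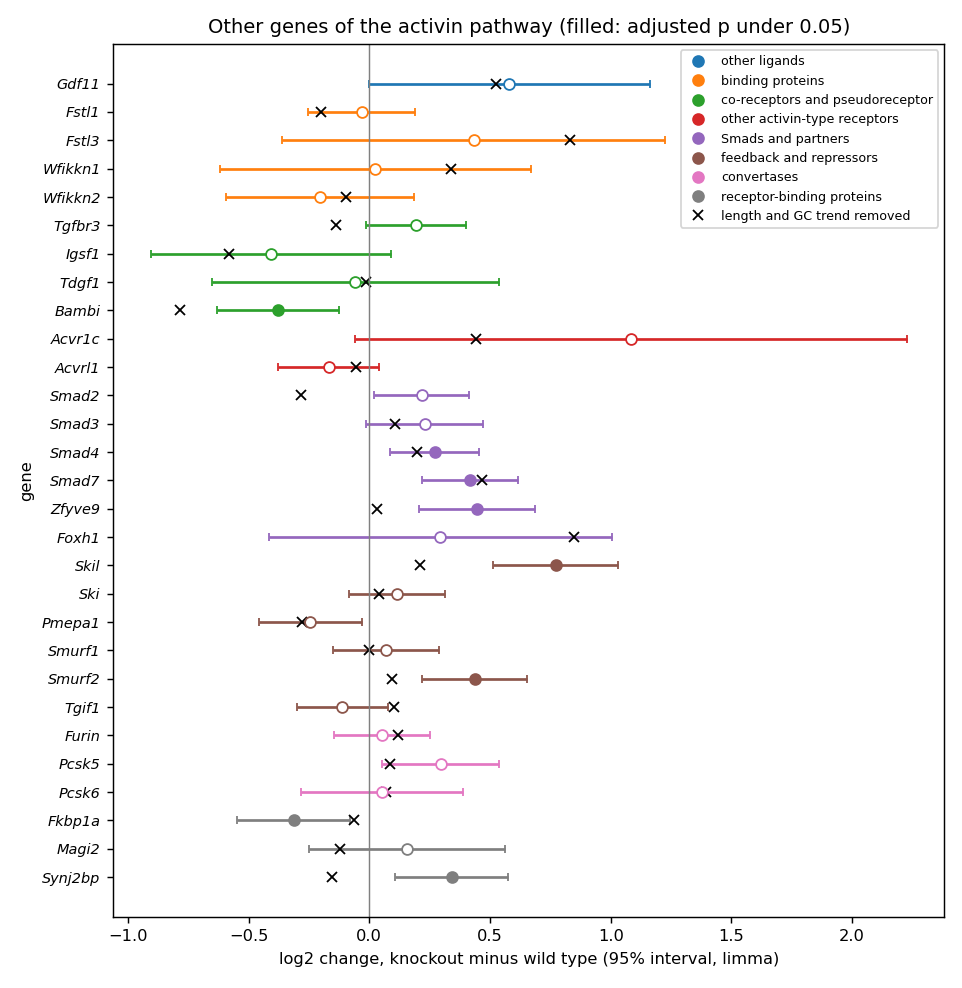
Log2 change (knockout minus wild type, horizontal axis) with 95% limma intervals of the 29 other pathway genes tested, coloured by function, filled where the adjusted p was under 0.05, and with a cross for the value once the length and GC trend was taken out. Smad7 and Bambi are filled and their crosses stay on the same side at 0.47 and -0.78, while the cross of Skil moves from 0.77 to 0.21.

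Ptgds, the gene of L-Pgds, averaged 7803 in wild type and 7.39 in knockout and so matched the labels, while Hpgds was higher in knockout (49.2 and 92.9), and since the labels do not say which exons of Hpgds were deleted, its value checks nothing. Wild-type library 1 stood apart by its muscle genes. Without it 3 of the 8 genes were higher and 1 lower, as the call of Inhbb ended, and of all 14956 genes then tested 2363 were higher and 2163 lower. With all 6 libraries, 5180 of 15116 genes changed, 2609 higher and 2571 lower.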

How the data were processed

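RNA sequencing libraries of 6 gonads, 3 wild type and 3 L/H-Pgds-/-, were analysed from 1 table. The deposited values are a signal per gene, the upper-quartile normalised pseudo-counts of the authors. Per the submitters' processing notes, CASAVA 1.8.2, edgeR 2.6.2 and the build mm9 were used; for the aligner and the annotation: not given in the sources used here. Library sums lay between 21657342 and 23734462, which follows from the normalisation; depth is unknown, so no counting interval is given. All 6 value columns matched a library by name.

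Values were analysed as log2(value + 1), which understates changes of low genes, with limma 3.58.1 in R 4.3.3: moderated test, mean-dependent prior, two-sided, Benjamini-Hochberg adjustment over 15116 genes with at least 10 in at least 3 libraries, threshold 0.05. Every adjusted p of a gene comes from this test. The scripts were tested on simulated data. Length and GC content came from the longest protein-coding transcript in GENCODE vM21, matched by NCBI gene ID (14449 tested genes); the trend was removed per library with natural splines of 4 degrees of freedom. Ratios used exact permutation tests. Promoter windows are from RefSeq, GRCm38.p6, while gene coordinates are those of the table. Plots used Python 3.11.15 and matplotlib 3.10.9.

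The 8 genes, the pathway and 10 marker lists, the tests and the alternatives were chosen with earlier results of these data known. Text names the 8 genes, pathway genes past the threshold, the most abundant member of each pathway group without any, and the 2 genes most like each ligand gene or Fst over 6 libraries; others are said to be named after their values were seen or serve as context. Alternatives were pseudocounts of 0.5 and 10, no filter or one at 50, 3 other scalings, a prior without mean dependence, a threshold of 0.1, trend removal with and without wild-type library 1, and each library left out.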

Additional observations from a re-analysis of the deposited data

How the results depend on the processing

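No paired analysis was possible because wild-type libraries (1, 3, 4) and knockout libraries (5, 7, 8) share no number. Of the alternatives listed for the 8 genes, 115 kept direction and side of the threshold, 9 lost a call (Inha, Acvr2a and Inhbb, as given above) and 2 changed sign, both for Fst. Fst and Inhba were not tested with the filter at 50. With the length and GC trend removed, 1654 of all genes, 3 of the 8 and 4 pathway genes passed, and 1791, 3 and 3 with library 1 of wild type dropped too, where Fst stood at 0.21, Synj2bp at -0.15 and Pcsk5 at -0.0548. Removal also turned Synj2bp to -0.15 and the Acvr2a to Acvr2b difference to -0.21. Without a mean-dependent prior, 4 pathway genes passed. Fstl1, at -0.03 as deposited, stood at 0.0704 with equal totals and 0.16 with quantile normalisation. With 1 library left out, 3098 (without wild-type library 4) to 5038 of all genes, 4 to 5 of the 8 and 4 to 10 pathway genes passed; log2 changes ran from -0.62 to 0.30 for Fst and from -0.11 to 0.0261 for Fstl1. Equal totals moved the median of all genes by 0.10 and the share of higher among called genes from 50.4% to 67.5%; the 8 genes kept 4 higher and 1 lower under all 3 scalings, and each of the 5 changes exceeded that shift. Why these values moved was not tested. Depth is unknown, so the counting error of low genes such as Inhba and Fst cannot be given.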
